A study of Homo sapiens with 17 samples.

Results

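The 5 zinc finger gene clusters of human chromosome 19 held 2871 of the 389788 peaks listed for 6 proteins in 293T cells. A peak is a stretch of RNA where reads from the protein's own precipitate pile up. A listed peak does not by itself show binding: 50 of the 2871 (1.74%) passed the significance rule given below. A peak belonged to a cluster when its midpoint, on either strand, lay in 1 of 5 windows of the hg19 genome build. Cluster 1 was chr19:19600000-24500000, cluster 2 was chr19:36700000-38400000 and cluster 3 was chr19:44300000-45000000. Cluster 4 was chr19:52300000-54000000 and cluster 5 was chr19:56500000-59100000. Together they span 11.6 Mb, or 19.7% of the length between the first and the last peak on the chromosome. Position alone chose the peaks, so their folds and p-values were not used in the choice. The members were 10.7% of the 26816 peaks on chromosome 19, and the other 23945 served as the comparison.

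Zinc finger genes of the KRAB type lie in tandem arrays on this chromosome. Their proteins bind DNA through zinc fingers, and the KRAB domain recruits the corepressor TRIM28 (KAP1), which silences many transposable elements. ZNF184, 1 of the 6 proteins precipitated here, is itself a KRAB zinc finger protein, encoded on another chromosome. The RefSeq gene table of the build GRCh38.p14 gives the density of such genes. By symbol, 266 of its 1451 coding genes on chromosome 19 (18.3%) are zinc finger genes, against 1.66% of coding genes elsewhere. Of these 266 genes, 242 (91.0%) have another as a neighbour. That table is of another build than the peaks, so no gene was placed at a peak, TRIM28 included, and peaks are given by hg19 position. The name of the clusters therefore rests on their coordinates and was not checked against an hg19 annotation.

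In eCLIP, proteins are crosslinked to bound RNA by ultraviolet light, 1 protein is precipitated with its antibody, and the RNA fragments that remain attached are sequenced. All cells were the 293T line, a derivative of a human embryonic kidney culture, and all were irradiated on the plate at 254 nm with 400 mJ per square cm. The precipitated proteins were AIFM1 (a mitochondrial flavoprotein), NUMA1 (a mitotic spindle organiser), RANGAP1 (the GTPase activator of nuclear transport), RNF219 (a RING finger protein), VIM (the intermediate filament vimentin) and ZNF184. RNF219 had 1 eCLIP library and the others had 2 replicates each, which made 11 libraries and 6 size-matched inputs. An input is RNA from the same gel window, reaching 75 kDa above the protein, without precipitation, and the replicates of a protein share 1 input. The series calls the replicates biological and says no more, so the spread between them may be partly technical.

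ZNF184 and NUMA1 had the largest shares of their chromosome 19 peaks in the clusters, and VIM and AIFM1 the smallest. In ZNF184 the clusters held 571 of 3874 peaks in replicate 1 (14.7%, 95% Wilson interval 13.7 to 15.9) and 504 of 3597 in replicate 2 (14.01%, 12.9 to 15.2). NUMA1 gave 413 peaks (14.5%) in replicate 1 and 206 (10.4%) in replicate 2. RANGAP1 gave 348 (10.0%) and 310 (9.14%), and the single RNF219 library gave 137 (8.48%). RANGAP1 and RNF219 were in the middle of the order, and NUMA1 replicate 2 lay nearer to RANGAP1 than to NUMA1 replicate 1. AIFM1 gave 66 peaks (5.27%) and 180 (7.27%). VIM gave 51 (4.79%) and 85 (6.80%). Over replicates the mean was 14.4% ± 0.514 (SD, n = 2) for ZNF184, 12.4% ± 2.88 for NUMA1, 9.59% ± 0.633 for RANGAP1, 6.27% ± 1.42 for AIFM1 and 5.80% ± 1.42 for VIM. AIFM1 and VIM differed by less than the spread between their replicates, and the ranges of ZNF184 and NUMA1 overlapped. No test was made on these shares, because peak numbers also follow how abundant an RNA is and how deeply a library was sequenced. Intervals here cover counting error only.

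**Figure D1:**
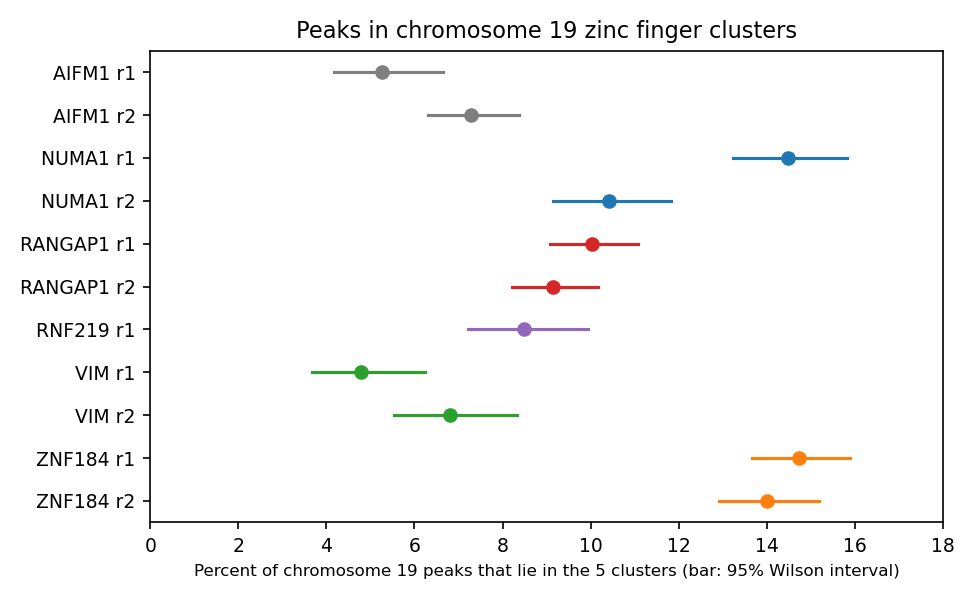
Percent of each eCLIP library's chromosome 19 peaks that lie in the 5 clusters (horizontal axis), for the 11 libraries (r1 and r2 are replicates 1 and 2). Points are shares, coloured by protein, and bars are 95% Wilson intervals. Both ZNF184 libraries and NUMA1 replicate 1 lie at 14.01% to 14.7%, and VIM replicate 1 is lowest at 4.79%.

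The clusters carried fewer peaks per length than the rest of the chromosome, 247.5 per Mb against 505 per Mb (the rest includes the centromere). Cluster 5, at the end of the long arm, held 1449 peaks (50.5% of the members) at 557 per Mb. Cluster 1 held 604 at 123 per Mb and cluster 4 held 219 at 129 per Mb. Clusters 2 and 3 lay between, with 423 peaks at 249 per Mb and 176 at 251 per Mb. ZNF184 made up 37.4% of all member peaks, and its share was 58.5% in cluster 3 (103 of 176) and 54.3% in cluster 4 (119 of 219), but 31.0% in cluster 5. Its lists were also the longest, with 63198 and 53807 of the 389788 peaks of the series. On the rest of chromosome 19 its replicates gave 3303 and 3093 of the 23945 peaks. Strand was uneven: 76.7% of the peaks in cluster 3 and 70.8% of those in cluster 5 were on the plus strand, against 52.2%, 47.5% and 47.5% in clusters 1, 2 and 4.

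Peaks gathered in a few stretches. Of the 116 windows of 100 kb, 37 had no peak in any library and the 79 others are plotted by position. The last 3 windows of cluster 5, from 58.8 Mb on, held 166, 197 and 323 peaks, which is 686 in all (23.9%). The first 2 windows of cluster 1, from 19.6 Mb on, held 148 and 153. These outer edges, 0.5 Mb or 4.31% of the length, carried 987 peaks (34.4%). Their part of a library's member peaks ran from 27.2% in ZNF184 replicate 2 to 72.5% in VIM replicate 1. Without the edges the mean share of chromosome 19 peaks in the clusters was 10.8% for ZNF184, 9.18% for NUMA1, 6.04% for RANGAP1, 4.95% for RNF219, 3.36% for AIFM1 and 2.58% for VIM. The edges were picked after these counts were seen, and whether they lie within the gene clusters proper was not tested. Away from the edges, the window at 44.6 Mb in cluster 3 held 71 peaks, of which 23 and 21 came from the ZNF184 replicates.

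**Figure D2:**
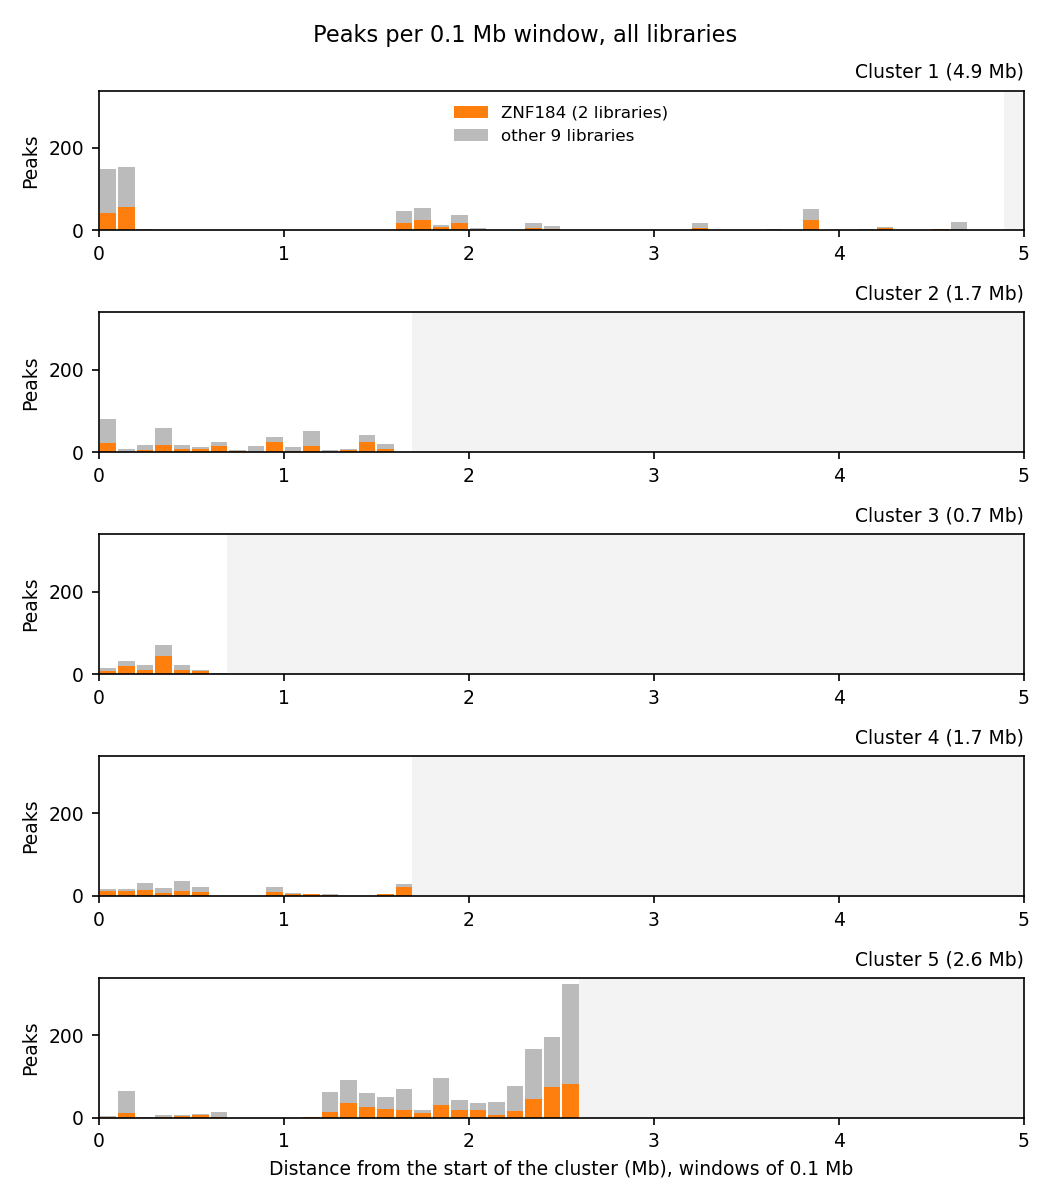
Number of peaks in each 100 kb window of the 5 clusters (vertical axis) along the distance from the start of each cluster (horizontal axis), with the 2 ZNF184 libraries in orange and the other 9 in grey. Shading marks lengths beyond a cluster's end. The tallest 3 windows are the last of cluster 5, with 166, 197 and 323 peaks, followed by the first 2 of cluster 1, with 148 and 153.

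Enrichment over input was compared next. The lists give, as the authors' values, the log2 fold of each peak over the size-matched input and its -log10 p, called library by library. In ZNF184 the median log2 fold of cluster peaks was 1.77 in replicate 1 and 1.83 in replicate 2, and on the rest of the chromosome 1.29 and 1.46. In AIFM1 the cluster medians were 1.44 and 0.68 against 1.13 and 0.68. In NUMA1 they were 1.43 and 1.67 against 1.33 and 1.25. Cluster peaks of these proteins were thus as high as, or higher than, those elsewhere. RANGAP1 gave 1.15 and 1.83 against 1.41 and 1.64. VIM gave 1.95 and 2.30 against 1.95 and 1.71. The RNF219 library gave 0.49 against 0.17. RANGAP1 was the protein whose replicates lay on opposite sides, and the median of the clusters exceeded that of the rest in 8 of 11 libraries, equalled it in 2 and was below it in 1.

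Averaged over replicates, the difference between clusters and the rest was 0.42 ± 0.07 (SD, n = 2) in ZNF184, 0.26 ± 0.22 in NUMA1, 0.29 ± 0.41 in VIM, 0.16 ± 0.22 in AIFM1, -0.04 ± 0.32 in RANGAP1 and 0.32 in the single RNF219 library. Over the 6 proteins the mean was 0.24 ± 0.16 (SD), above 0 in 5 of 6. An exact 2-sided sign-flip permutation test over the 6 proteins gave p = 0.0625, where the smallest p possible is 0.0312. The value was smaller in subsets of the peaks. Over peaks above input it was 0.12 (exact permutation p = 0.125), and against the other nuclear chromosomes in place of the rest of chromosome 19 it was 0.05 (p = 0.75). Over peaks whose read numbers could be settled from fold and p, which leaves out those with a -log10 p of 0 and so most peaks below input, it was 0.14 (exact permutation p = 0.125). Among settled peaks with 2 to 9 input reads it was -0.02 (exact permutation p = 0.875), and among peaks with at least 10 it was -0.05 (p = 0.906). Both the settling of reads and the limit on input reads select on parts of the fold itself, and what each contributes was not tested. Without the edges the difference was 0.49 (exact permutation p = 0.0312, above 0 in 6 of 6 proteins). With the edges left out it was 0.27 over settled peaks (exact permutation p = 0.0625) and 0.02 over settled peaks with 2 to 9 input reads (p = 1). Leaving out RANGAP1 replicate 1, the only library below 0, gave 0.27 with an exact permutation p of 0.0312. That left 6 of 6 proteins above 0, which fixes p at its smallest value. Leaving out any other library gave an exact permutation p of 0.0625 or 0.125.

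**Figure D3:**
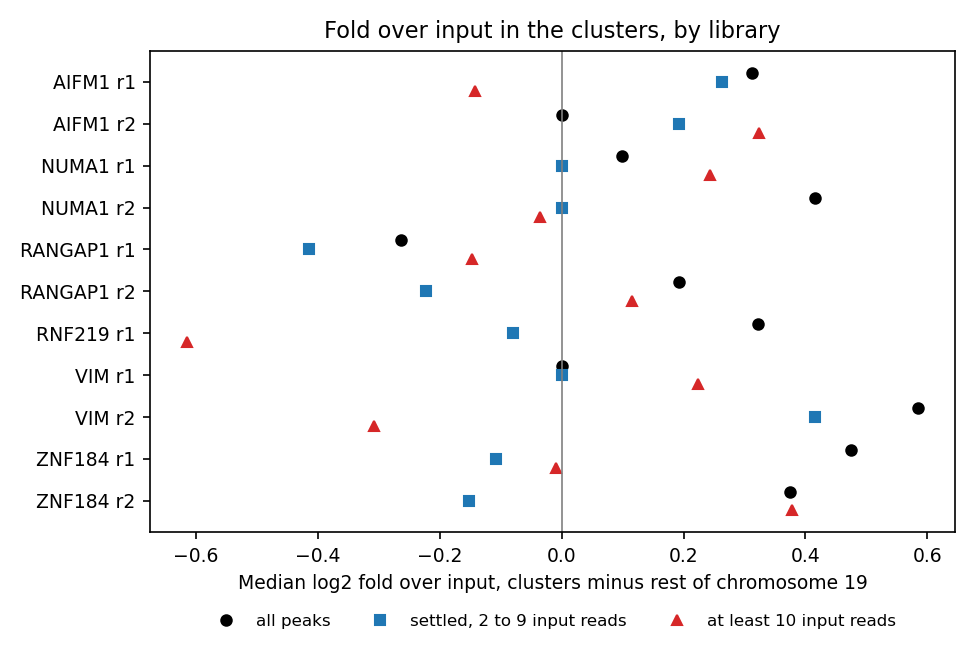
Median log2 fold over input of cluster peaks minus that of the other chromosome 19 peaks (horizontal axis) in each library, for all peaks (circles), peaks with settled read numbers and 2 to 9 input reads (squares) and peaks with at least 10 input reads (triangles). The ZNF184 replicates lie at 0.47 and 0.37 over all peaks, at 0.42 and 0.32 over all settled peaks (not drawn), and at -0.11 and -0.15 over settled peaks with 2 to 9 input reads.

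Read numbers could be settled for 48.9% to 94.1% of cluster peaks per library, with the lowest shares in AIFM1 replicate 2 (88 of 180) and RNF219 (68 of 137). Among settled peaks, the median eCLIP reads were lower in the clusters than on the rest of the chromosome in 8 of 11 libraries and equal in the other 3. In ZNF184 a settled cluster peak had a median of 6 eCLIP reads in replicate 1 and 5 in replicate 2, against 10 and 9 elsewhere, and 2 input reads against 4. RANGAP1 showed the same pattern, with 4 and 4 eCLIP reads against 8 and 7 and 2 input reads against 4. Peaks with at most 1 input read made up 31.5% and 36.3% of the settled cluster peaks (537 and 471) in the ZNF184 replicates, against 17.8% and 19.9% elsewhere. In RANGAP1 the shares were 27.0% and 30.6% against 15.6% and 15.8%, and in RNF219 79.4% of 68 settled cluster peaks against 62.0% of 652. Of settled peaks, this share was higher in the clusters in 11 of 11 libraries, with the smallest gap in NUMA1 replicate 2, where it was 8.70% in the clusters. A peak with 1 input read can reach significance only with enough eCLIP reads, from at least 5 in VIM replicate 1 to at least 23 in AIFM1 replicate 2.

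Few cluster peaks passed the significance rule, which is a log2 fold of at least 3 (8-fold) and a -log10 p of at least 3. Over all libraries 50 of 2871 did (1.74%), against 698 of 23945 (2.92%) on the rest of chromosome 19. ZNF184 had 14 in replicate 1 (2.45%, 95% Wilson interval 1.47 to 4.07) and 14 in replicate 2 (2.78%, 1.66 to 4.61). On the rest of the chromosome 4.48% (3.83 to 5.24) and 6.76% (5.93 to 7.70) of its peaks passed. These intervals treat peaks as independent and are a description, not a test. Over the whole lists of these libraries, 3.15% and 4.82% of peaks were significant, and the ZNF184 shares in the clusters were below these too. RANGAP1 had 2 and 2 (0.575% and 0.645%), against 2.501% and 4.35% on the rest of the chromosome and 1.52% and 2.99% over its whole lists. VIM had 4 of 51 (7.84%) and 3 of 85 (3.53%), against 3.75% and 3.00%, with 5.29% and 4.50% over its whole lists. VIM therefore exceeded the rest of the chromosome in both replicates, but its intervals, 3.09 to 18.5 and 1.21 to 9.87, include the shares of the rest.

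NUMA1 had 9 (2.18%) and 2 (0.971%), against 1.80% and 0.451%, with 1.51% and 0.877% over its whole lists. AIFM1 had 0 of 66 and 0 of 180, which allows shares up to 4.55% and 1.67%, and its whole lists were at 0.216% and 0.214%. The RNF219 library had 0 of 137, which allows up to 2.19%, and was at 0.926% over its whole list. For AIFM1 and RNF219 a difference was not detectable at this depth. The mean difference over 6 proteins was -0.533 percentage points ± 2.04 (SD), above 0 in 2 of 6, and the exact 2-sided sign-flip permutation test gave p = 0.406.

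**Figure D4:**
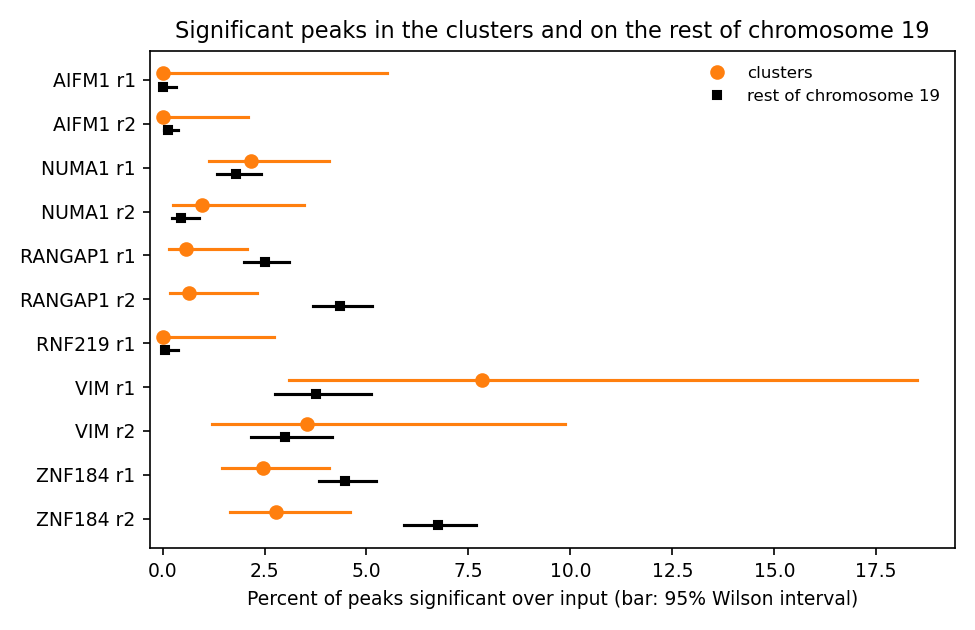
Percent of peaks that pass the significance rule (horizontal axis) in each library, in the clusters (orange circles) and on the rest of chromosome 19 (black squares), with 95% Wilson intervals as bars. Both ZNF184 and both RANGAP1 libraries are lower in the clusters, at 2.45% and 2.78% and at 0.575% and 0.645%, and the VIM intervals are the widest.

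By cluster, the mean difference in median log2 fold from the rest of the chromosome was 0.06 in cluster 1, 0.46 in cluster 2, 0.61 in cluster 3, 0.40 in cluster 4 and 0.20 in cluster 5. Cluster 5 was above 0 in 6 of 6 proteins (exact sign-flip permutation p = 0.0312), but after Benjamini-Hochberg adjustment over the 5 clusters the values were 0.656, 0.104, 0.104, 0.273 and 0.104 in that order. None passed 0.05. AIFM1 and VIM had 2 peaks each in cluster 3, and VIM had 3 in cluster 4, so their medians there rest on very few peaks. Significant peaks numbered 19 in cluster 1 (3.15% of its peaks), 2 in cluster 2 (0.473%), 4 in cluster 3 (2.27%), 3 in cluster 4 (1.37%) and 22 in cluster 5 (1.52%). On the rest of the chromosome the share was 2.92%, so that of cluster 1 was near it. Of the 19 in cluster 1, 10 lay in 1 run at its start, described below. All 4 in cluster 3 came from 1 library, ZNF184 replicate 2, and ZNF184 gave 58.5% of the peaks there.

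No protein could be set apart from the others by its cluster difference. Against the other libraries the value was 0.24 higher in ZNF184 (exact permutation p = 0.255, adjusted over 6 proteins 0.764) and 0.32 lower in RANGAP1 (p = 0.109, adjusted 0.655). AIFM1, NUMA1, RNF219 and VIM had adjusted exact permutation p-values of 0.855. The design allows a smallest p of 0.0182 for a protein with 2 libraries and 0.0909 for RNF219, so no outcome could pass after adjustment. Replicates of a protein differed by 0.35 on average in this value, against 0.31 over all ways of pairing the 10 libraries (exact permutation p = 0.562).

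Most cluster sites were seen once. When overlapping peaks on a strand were merged over libraries, 1894 sites resulted, of which 1447 had a peak in 1 library and 1552 (81.9%) in 1 protein. At the other end 17 sites had a peak in 9 or more libraries, and 14 of them lay at the edges. These counts were not made on the rest of the chromosome, so they do not set the clusters apart from it. Between replicates, ZNF184 shared 120 cluster regions, which is 21.3% of those in replicate 1 and 24.3% of those in replicate 2, against 34.0% and 36.2% on the rest of the chromosome. RANGAP1 shared 89 (26.0% and 29.3%), against 38.0% and 38.2%. NUMA1 shared 78 (19.02% and 38.0%, against 25.7% and 35.0%). AIFM1 shared 25 (41.0% and 14.2%, against 35.0% and 18.04%) and VIM 22 (44.0% and 25.9%, against 24.7% and 21.5%). The shares depend on how many peaks each list holds. Spearman correlations of log2 folds over shared regions were 0.760 in ZNF184, 0.843 in NUMA1, 0.863 in RANGAP1, 0.667 in AIFM1 and 0.932 in VIM. On the rest of the chromosome they were, in that order, 0.842, 0.868, 0.869, 0.739 and 0.862. They are a description, since both replicates were divided by the same input.

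Significant peaks fell at 42 sites, and 41 of these were significant for 1 protein alone. That count was not made on the rest of the chromosome, and 81.9% of all cluster sites had a peak in 1 protein alone. At the edges lay 28 of the 50 significant peaks (56%), including 18 of the 28 of ZNF184. Of the 50, 49 had reads that could be settled, with a median of 15 eCLIP and 2 input reads, and 14 had 1 input read. The start of cluster 1 held a run of 8 sites with 10 significant peaks on the plus strand, between chr19:19638676 and 19646411, a stretch of 7736 nt. ZNF184 gave 8 of these peaks, and 5 of replicate 2 lay within 1280 nt. The site significant for 2 proteins was the last of the run, chr19:19646380-19646411, where the log2 fold was 3.39 in VIM replicate 1 and 3.73 in ZNF184 replicate 2.

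In 6 regions both replicates of a protein had a significant peak. ZNF184 had 3, VIM 2 and NUMA1 1, and AIFM1 and RANGAP1 had none in the clusters. All 3 ZNF184 regions and 1 of the 2 VIM regions lay at the edges, so that without the edges 2 regions remained, 1 of NUMA1 and 1 of VIM. On the rest of the chromosome ZNF184 had 53 such regions, RANGAP1 33, VIM 9, NUMA1 3 and AIFM1 0. As a share of a protein's reproducible regions on chromosome 19, the clusters held 5.36% for ZNF184 (mean peak share 14.4%), 0% for RANGAP1 (9.59%), 25% for NUMA1 (12.4%) and 18.2% for VIM (5.80%). The NUMA1 and VIM shares rest on 1 of 4 and 2 of 11 regions, and no test was made. The 6 are the cluster regions that passed the significance rule in both libraries of a protein. A high fold of that protein there therefore follows from the choice. Each is described with its read numbers.

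For ZNF184, the plus-strand region chr19:19639253-19639304 lay in the run at the start of cluster 1. Its log2 fold was 3.11 in replicate 1 (19 eCLIP and 3 input reads) and 3.42 in replicate 2 (28 and 4 reads), with 95% intervals of 1.34 to 5.51 and 1.90 to 5.39. Where other proteins had a peak there, it was 0.07 and 0.23 in the NUMA1 replicates, 1.15 in RANGAP1 replicate 2, 1.28 in AIFM1 replicate 1 and -1.51 in RNF219. All the other libraries with a peak at this site were below the ZNF184 values, which chose the region. The peaks did not cover the same stretch. Those of NUMA1 began at chr19:19639295 and 19639294 and that of RANGAP1 at 19639286. At chr19:58898640-58898695, plus strand in cluster 5, ZNF184 reached 4.03 and 4.52, on 12 and 15 eCLIP reads over 1 input read, with intervals of 1.27 to 9.45 and 1.82 to 9.91. Other libraries there ranged from -1.29 in RNF219 to 2.51 in AIFM1 replicate 2. NUMA1 had 49 and 36 eCLIP reads over 73 and 65 input reads, and RANGAP1 60 and 46 over 43 and 43. AIFM1 replicate 2 had 32 over 3. ZNF184 was thus highest in fold but not in eCLIP reads, and what its 1 input read contributes was not tested. The third, chr19:59060984-59061016 on the plus strand, had 3.32 and 3.16, on 22 reads over 3 and 35 over 6. The other libraries with a peak were AIFM1 replicate 2 at 0.97, RANGAP1 replicate 1 at 0.17 and VIM replicate 2 at -1.03. In that order their reads were 11 over 3, 19 over 25, and at least 3 over at least 20.

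VIM had its strongest cluster region at chr19:58874872-58874916, plus strand, with log2 folds of 5.21 and 4.03 on 46 and 30 eCLIP reads over 6 input reads. The 95% intervals were 3.98 to 6.73 and 2.74 to 5.59. Lower bounds above 0 follow from the choice of the region by these same folds and p-values. ZNF184 had 2.45 and 2.93 there, on 4 and 5 eCLIP reads over 1 input read. Its intervals, -0.89 to 8.07 and -0.23 to 8.50, overlapped those of VIM. NUMA1 replicate 2 had 2.08 (-0.48 to 4.85), while AIFM1 had -0.01 and 0.68 and RANGAP1 had 0.56 and -0.17. The other VIM region was chr19:21559822-21559869, plus strand in cluster 1, with 3.50 and 3.45 on 7 and 10 eCLIP reads over 3 input reads. Its intervals were 1.37 to 6.08 and 1.49 to 5.95, and NUMA1 replicate 2 had -0.75.

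The NUMA1 region, chr19:22877619-22877708 on the minus strand of cluster 1, had a peak in all 11 libraries. NUMA1 was highest, at 3.96 on 26 eCLIP and 3 input reads in replicate 1 and 5.17 on at least 34 and at least 3 reads in replicate 2. The log2 folds of the other libraries were above 0 and below 3, but the 95% intervals of AIFM1 replicate 1 (-0.95 to 3.91) and RNF219 (-0.67 to 7.79) included 0. In NUMA1 replicate 1 the interval was 2.26 to 6.33, and in replicate 2 none could be given. The other libraries stood at 1.28 and 2.47 in AIFM1, 2.66 and 2.02 in RANGAP1, 2.30 in RNF219 and 2.27 and 2.499 in VIM. ZNF184 had 2.96 and 2.61. Its replicate 1 had 57 eCLIP over 10 input reads, and its interval of 1.97 to 4.09 overlapped that of NUMA1 replicate 1. The -log10 p was 11.46 in ZNF184 replicate 1 and 8.62 in NUMA1 replicate 1, so the region was not high in NUMA1 alone. The other site with a peak in all 11 libraries, chr19:59069743-59069983 on the minus strand, was not of this kind: AIFM1 had 2.53 and 1.90, RANGAP1 2.44 and 3.00, VIM 2.40 and 1.88, NUMA1 0.46 and 1.13, ZNF184 0.75 and 1.29 and RNF219 -1.83.

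In clusters 2, 3 and 4 no region was significant in both replicates, and the leading sites were each significant in 1 library. In cluster 2, ZNF184 replicate 1 had 4.15 at chr19:38126324-38126368 on the minus strand, on 13 eCLIP reads over 1 input read. In cluster 3, ZNF184 replicate 2 had 5.07 at chr19:44993900-44993959 on the minus strand, on 22 reads over 1, with a 95% interval of 2.44 to 10.44. In cluster 4, NUMA1 replicate 1 had 4.02 at chr19:52598246-52598267 on the minus strand, on 9 reads over 1. Each rests on 1 input read, which sets the width of its interval.

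**Figure D5:**
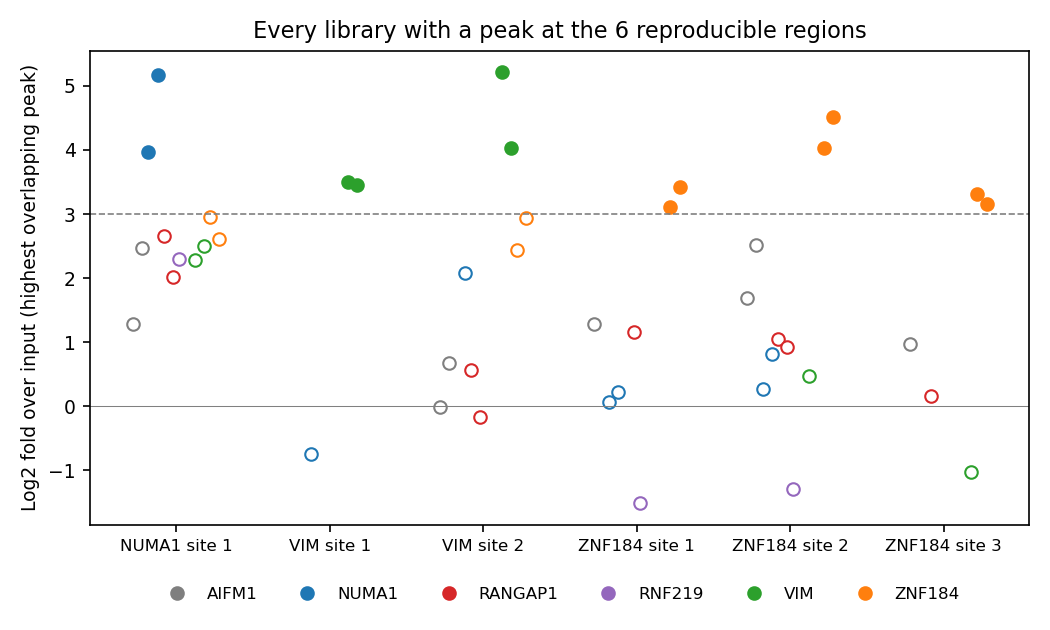
Log2 fold over input (vertical axis) in every library with a peak at the 6 regions where both replicates of a protein were significant; colours mark proteins and filled points passed the significance rule. The dashed line is the threshold of 3. In all 6 regions the other proteins lie below 3 or have no peak, and at the NUMA1 region all 11 libraries lie above 1.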

How the data were processed

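Peak lists of 11 eCLIP libraries were used, 1 list per library and none pooled. Per the submitters' processing notes the tools were cutadapt, STAR, GATK, Picard and SAMtools with the build hg19. For the peak caller, and for how reads matching several near-identical zinc finger genes were placed, nothing is given in the sources used here; duplicate removal is likewise not stated. The authors deposited 2 values per peak, the -log10 p-value against the size-matched input and the log2 fold over it.

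Total reads per library are unknown. Read numbers were recovered from the folds as whole-number ratios times the depth of input over eCLIP (0.534 to 4.84), and 99.7% to 99.9% of folds came out whole to within 1e-09 on the log2 scale. Of the p-values, 98.6% to 99.8% matched to within 0.005 on the log10 scale. Where p had stopped at the software's limit or was 0, reads are a minimum and the peak counts as not settled; the limit of at least 10 input reads takes these minimums. Intervals are exact binomial or Wilson at 95%, and a count of 0 allows 3 counts.

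Per-library differences of medians or percents were averaged per protein and tested by exact permutation. Replicate numbers are only names: replicate 1 exceeded replicate 2 in 2 of 5 proteins. Sites were named by rule: the 5 reproducible regions of highest mean fold per protein and the site significant in most libraries per cluster. Other sites named (the run, the 2-protein site and the sites in all libraries) were chosen after their values were seen. The clusters, lists and tests were chosen with earlier results of these data known. The scripts were checked on simulated data and ran in Python 3.11.15 with NumPy 2.4.6, SciPy 1.17.1, pandas 2.3.3 and Matplotlib 3.10.9.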

Additional observations from a re-analysis of the deposited data

Results flagged for a closer look

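In 4 pairs of proteins, every replicate of one lay on the opposite side of 0 from every replicate of the other in the percent of significant peaks, clusters minus the rest of chromosome 19. The gap between protein means was 3.26 percentage points for NUMA1 minus RANGAP1, 3.45 for NUMA1 minus ZNF184, 5.12 for VIM minus RANGAP1 and 5.31 for VIM minus ZNF184. The same happened for the median log2 fold of cluster 1, where VIM minus RANGAP1 was 0.70 and ZNF184 minus RANGAP1 was 0.43. None of these differences between proteins was itself tested, and each rests on 2 libraries per protein. The 4 pairs depended on the fold cutoff. With a log2 fold of at least 1, the values were -2.07 and 1.62 in NUMA1 and 4.76 and -1.05 in VIM. With at least 4 they were -0.05 and 0.26 in NUMA1 and -0.31 and -0.03 in VIM, so no pair held at either cutoff. With a -log10 p of at least 5 the pairs remained.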

How the results depend on the processing

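Limits: input reads per settled cluster peak were few, with medians from 1 to 5.5, and no total depth is known. The alternatives without the edges, with settled reads, with settled reads and 2 to 9 input reads, and with these together, were chosen after seeing the data.

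The mean difference in median log2 fold (0.24) was -0.049 with at least 10 input reads, -0.015 with settled reads and 2 to 9, 0.14 with settled reads, 0.12 over peaks above input, 0.050 against the other nuclear chromosomes, 0.14 with means, 0.44 (exact permutation p = 0.0312) with clusters shortened by 100 kb and 0.49 without the edges. Leaving out 1 library gave 0.19 to 0.28, and p fell to 0.0312 without RANGAP1 replicate 1 alone (0.27). By cluster, at least 10 input reads gave -0.21 in cluster 3, where only 1 protein had such peaks. It gave -0.96 in cluster 4 (4 proteins, of which 3 were above 0) and -0.13 in cluster 5 (6 proteins, of which 2 were above 0). Cluster 1 was -0.030 over peaks above input and -0.13 against the other nuclear chromosomes. The cause was not tested for any of these.

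For 1 protein against the others, none of it significant, the signs turned as follows. RNF219 was -0.032 with means, -0.68 with at least 10 input reads, -0.14 over peaks above input, -0.76 against other chromosomes and -0.14 with shortened clusters. AIFM1 was 0.11 with at least 10 input reads and 0.035 against other chromosomes. VIM was -0.055 and -0.33 under the same pair, and RANGAP1 was 0.081 against other chromosomes. NUMA1 was -0.23 with shortened clusters and -0.24 without the edges, where ZNF184 was -0.040. Leaving out 1 library gave -0.24 to 0.069 in AIFM1, -0.12 to 0.19 in NUMA1 and -0.21 to 0.37 in VIM. The turns came without AIFM1 replicate 2, without NUMA1 replicate 2, without RANGAP1 replicate 1 (NUMA1 -0.03) and without VIM replicate 2. The likeness of replicates, as the within-pair difference minus the mean over pairings (0.04), was -0.047 with means, -0.036 with pieces merged, -0.036 over peaks above input, -0.073 against other chromosomes, -0.21 with shortened clusters and -0.12 without the edges.

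With the replicate number as a replicate block, the values were -0.10 in AIFM1, 0.03 in NUMA1, -0.33 in RANGAP1, 0.20 in RNF219, 0.08 in VIM and 0.23 in ZNF184, and no call changed.

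With shortened clusters the percent of chromosome 19 peaks in the clusters was 4.41 in AIFM1, 7.64 in RANGAP1, 6.57 in RNF219, 3.06 in VIM and 12.1 in ZNF184. Without the edges it was 3.36 in AIFM1, 9.18 in NUMA1, 6.04 in RANGAP1, 4.95 in RNF219, 2.58 in VIM and 10.8 in ZNF184. Reproducible regions (6) were 2 at a log2 fold of at least 4 (NUMA1 0, VIM 1, ZNF184 1), 28 at a log2 fold of at least 1 (NUMA1 8, RANGAP1 6, ZNF184 12) and 2 without the edges (VIM 1, ZNF184 0). ZNF184 had 1 with shortened clusters. Of the remaining values under alternatives, 106 counted as kept, and so did 147 with 1 library left out. For tested values this means the same direction and side of the threshold. An untested share was kept when it moved by less than the spread between replicates, or in RNF219 its counting error. Counts of reproducible regions were kept when equal or close, such as 4 in place of 6 with shortened clusters.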
